A study of Danio rerio with 6 samples.

Results

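Wnt ligands, their receptors and the secreted and membrane proteins that tune them were followed in adult zebrafish (Danio rerio) livers. Members were the rows of the count table whose gene symbol belongs to the families wnt, fzd, sfrp, dkk, lgr4 to lgr6, rspo, axin, lrp5, lrp6, rnf43, znrf3 or beta-catenin. This rule, which uses names and no measured value, found 39 of 25640 genes: 16 Wnt ligands, 8 Frizzled receptors, 1 co-receptor gene, 2 R-spondins, 1 R-spondin receptor, 1 receptor ubiquitin ligase, 8 secreted inhibitors and 2 beta-catenin genes. AXIN1, AXIN2, LRP6 and RNF43 were not analysed here. The libraries hold polyadenylated RNA from dissected livers of adult WT fish (3 libraries) and of adult lf:Yap transgenic fish (3 libraries). The sources used here do not state the fishes' exact age or sex, the promoter and form of the Yap transgene, or whether a library is 1 fish. P-values therefore cover the variation among these 6 libraries, part of which may be technical.

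Wnt proteins are secreted lipid-modified signals that bind Frizzled receptors together with the co-receptors Lrp5 or Lrp6. In the canonical branch this stops a destruction complex built on Axin from degrading beta-catenin, which then enters the nucleus and acts with Tcf and Lef factors. R-spondins bind Lgr receptors and clear Rnf43 and Znrf3, ubiquitin ligases that remove Frizzled proteins from the cell surface, while Sfrp and most Dkk proteins block the ligand or the co-receptor. In mammalian liver this branch sets the gene programme of hepatocytes near the central vein, and in zebrafish Wnt signals help to specify the liver. Yap, the coactivator raised in these fish, is held in check by the Hippo kinases.

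Depth was 71581315 to 87543545 gene counts per library. Levels are given as CPM, the usual count scaled to library size, here with TMM-adjusted sizes and without correction for gene length, so that they compare libraries and not genes. The targeted gene, YAP1 (ENSDARG00000068401), read 20.4 to 27.4 CPM in WT and 291.4 to 442.9 CPM in lf:Yap, in the direction of the labels. Summed hepatocyte markers were 86610 to 95880 CPM in WT and 111400 to 119900 CPM in lf:Yap. Of the 11 genes 6 lay above 0 and 5 below, and their median log2 difference was 0.02. None passed edgeR's test (0 of 11), while DESeq2 called 1 higher. An unadjusted p under 0.05 by edgeR was met by 3 higher and 0 lower, or 27.3% against 11.3% of all tested genes. The groups did not overlap for 3 higher and 1 lower, or 36.4% against 17.6% of all tested genes. Summed exocrine pancreas markers were 15370, 581.2 and 1368 CPM in WT replicates 1 to 3 and 12190, 58.1 and 16290 CPM in lf:Yap replicates 1 to 3, so that 3 libraries of both groups stood apart with over 10000 CPM. Of 7 intestinal marker genes the summed level was 121.9 to 744.3 CPM, with the highest in lf:Yap replicate 1.

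Among the family, 1 gene changed and it was a receptor: fzd5 fell in lf:Yap livers. The other 36 tested members did not pass edgeR's quasi-likelihood test at an adjusted p of 0.05, and 2 members, wnt11f2 and dkk1b, were too sparsely counted to be tested. Over all 24674 genes tested 0.665% passed, 0.109% with a lower level in lf:Yap. DESeq2 called 2 members and 4.64% of all genes it tested, and limma-voom called 1 member and 0.758% of all genes. With the adjustment left aside, 2 members were higher and 4 lower at p under 0.05, 16.2% of the 37 tested against 11.3% of all tested genes (6.12% higher and 5.2% lower). The groups did not overlap for 7 tested members, 3 higher and 4 lower, or 18.9% against 17.6% of all tested genes (8.84% higher and 8.78% lower). The latter share is close to that of all genes. Of the tested members 16 lay above 0 and 21 below, or 56.8% below against 53.2% of all tested genes, and the family's median log2 fold change was -0.14 against -0.03.

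**Figure D1:**
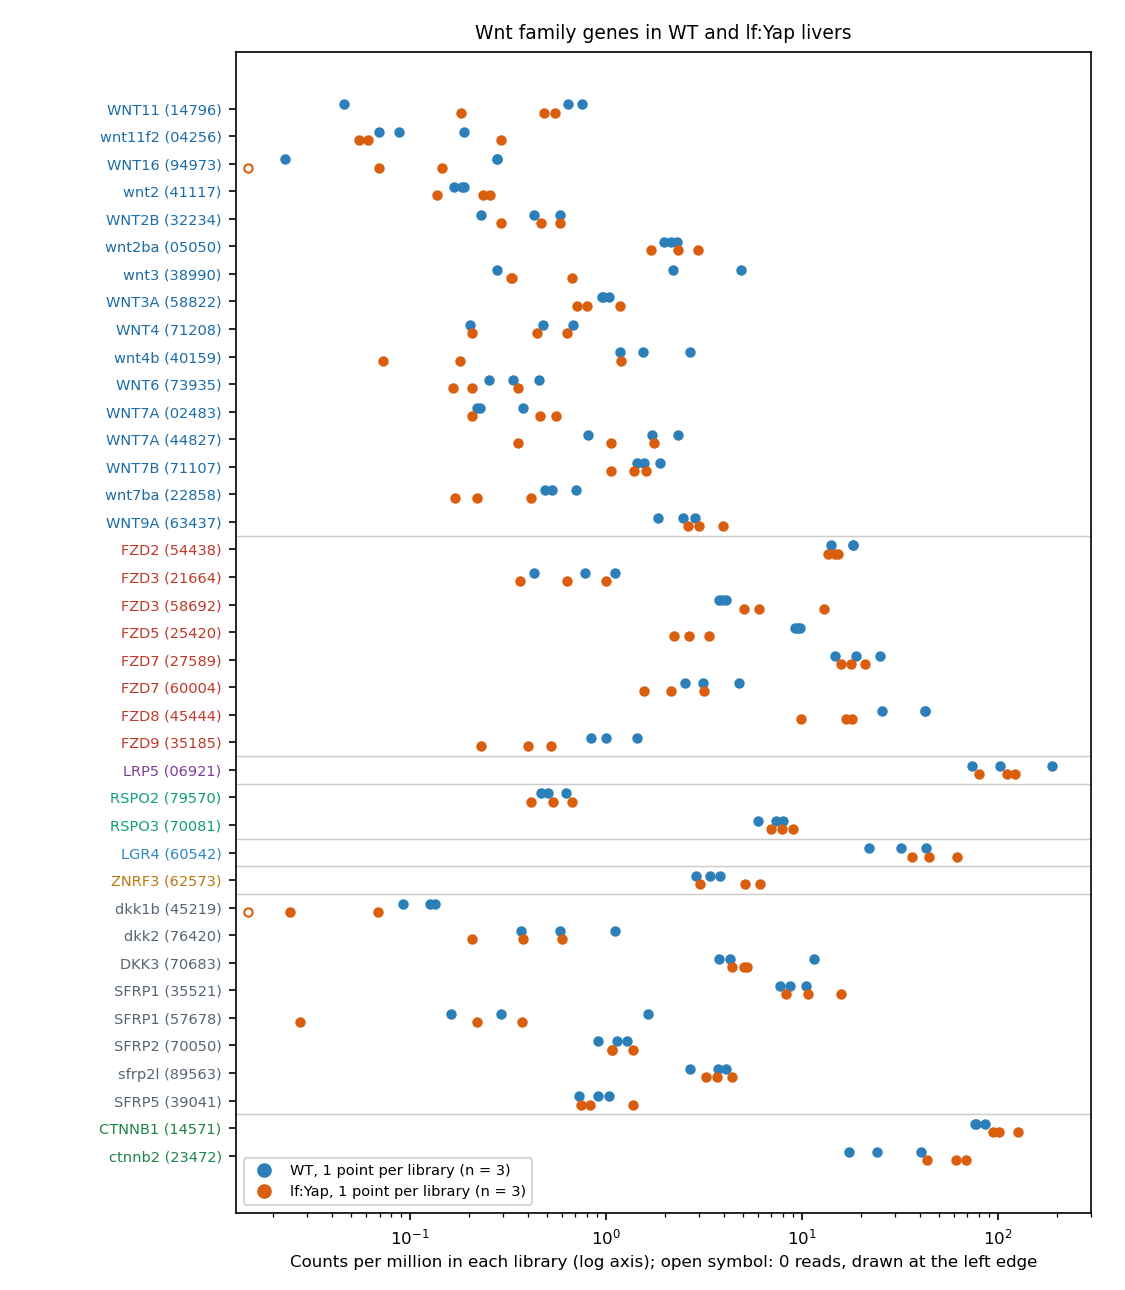
CPM (x axis, log scale) of the 39 family genes in each library, grouped by role from Wnt ligands at the top to beta-catenin genes at the bottom, with the last 5 digits of the gene ID in brackets. FZD5 read 9.19 to 9.77 CPM in the 3 WT libraries and 2.24 to 3.35 CPM in the 3 lf:Yap libraries, and most other genes overlap between the groups.

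The name table gives many zebrafish genes a human-style capital symbol without the letter that tells paralogs apart, and 29 of the 39 members carry one. FZD3, FZD7, SFRP1 and WNT7A each name 2 gene IDs, so the ID is given with each. The sources used here do not say how reads shared by close copies were assigned, and levels of such pairs are uncertain to that extent.

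The changed gene was in the receptor group. FZD5 (ENSDARG00000025420), a Frizzled receptor that can carry canonical signals, read 9.19, 9.77 and 9.58 CPM in WT replicates 1, 2 and 3 and 2.24, 3.35 and 2.65 CPM in lf:Yap replicates 1, 2 and 3. The WT libraries averaged 9.51 ± 0.294 CPM (SD, n = 3), and every lf:Yap library was below every WT library. The gene fell 3.47-fold (log2 fold change -1.79 ± 0.23, SE; 95% interval -2.34 to -1.24; adjusted p = 0.027 by edgeR, n = 3 each). By p it ranked 14 of the 27 genes that edgeR called lower in lf:Yap at an adjusted p under 0.05. DESeq2 gave an adjusted p of 2.7e-09 and limma-voom one of 0.0218. Without any 1 of the 6 libraries edgeR's adjusted p was 0.0577 to 0.131, so that edgeR's call needs all 6 libraries. Such fits were not run with DESeq2 or limma-voom. The log2 fold change in the fits without 1 library was -1.96 to -1.66. With the 3 libraries rich in pancreas markers left out, which leaves 2 WT and 1 lf:Yap library, it was -1.53 with an adjusted p of 0.522 by edgeR (a split chosen after seeing the data). In bulk tissue, fewer cells of a type that carries a transcript and less transcript per cell cannot be told apart.

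A pair of further receptor genes stood lower without overlap and missed the threshold by edgeR. Over the 8 receptor genes the groups did not overlap for 3 lower and 1 higher, or 50% against 17.6% of all tested genes. FZD8 (ENSDARG00000045444), the relative closest to Fzd5 in the Frizzled family, read 25.6, 42.4 and 42.5 CPM in WT and 9.88, 16.9 and 18.0 CPM in lf:Yap. Its 2.47-fold difference (log2 -1.30 ± 0.32, SE; 95% interval -2.05 to -0.56) had an adjusted p of 0.169 by edgeR (0.0103 with DESeq2, 0.167 with limma-voom). FZD9 (ENSDARG00000035185), from another branch of the family, read 0.996, 0.837 and 1.44 CPM in WT and 0.231, 0.523 and 0.402 CPM in lf:Yap, from 19 to 124 reads per library. Its log2 difference was -1.50 ± 0.44 (SE; adjusted p = 0.255, edgeR).

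FZD3 (ENSDARG00000058692), a receptor best known from axon guidance and planar cell polarity, was the 1 receptor gene above 0. It read 3.93, 3.80 and 4.10 CPM in WT and 12.9, 5.08 and 6.02 CPM in lf:Yap. The WT libraries were tightly grouped and all lf:Yap libraries lay above them, with replicate 1 far above the other two. The log2 difference of 1.02 ± 0.37 (SE) had an adjusted p of 0.362 by edgeR. It was 0.49 without lf:Yap replicate 1 and 0.37 without the 3 libraries rich in pancreas markers, lf:Yap replicate 1 among them. The other ID named FZD3 (ENSDARG00000021664) read 0.429 to 1.12 CPM in WT and 0.365 to 0.998 CPM in lf:Yap (log2 difference -0.22, 95% interval -1.45 to 1.01).

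The remaining receptor genes overlapped between the groups. FZD2 (ENSDARG00000054438) read 14.1 to 18.2 CPM in WT and 13.6 to 15.4 CPM in lf:Yap; the log2 difference was -0.20 with a 95% interval of -0.66 to 0.25. FZD7 (ENSDARG00000027589) differed by -0.10 (-0.69 to 0.48) and the other FZD7 (ENSDARG00000060004) by -0.60 (-1.48 to 0.28). For FZD2 and the first FZD7 the interval excludes a 2-fold change in either direction, that is 1 on the log2 scale; for the second it does not.

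**Figure D2:**
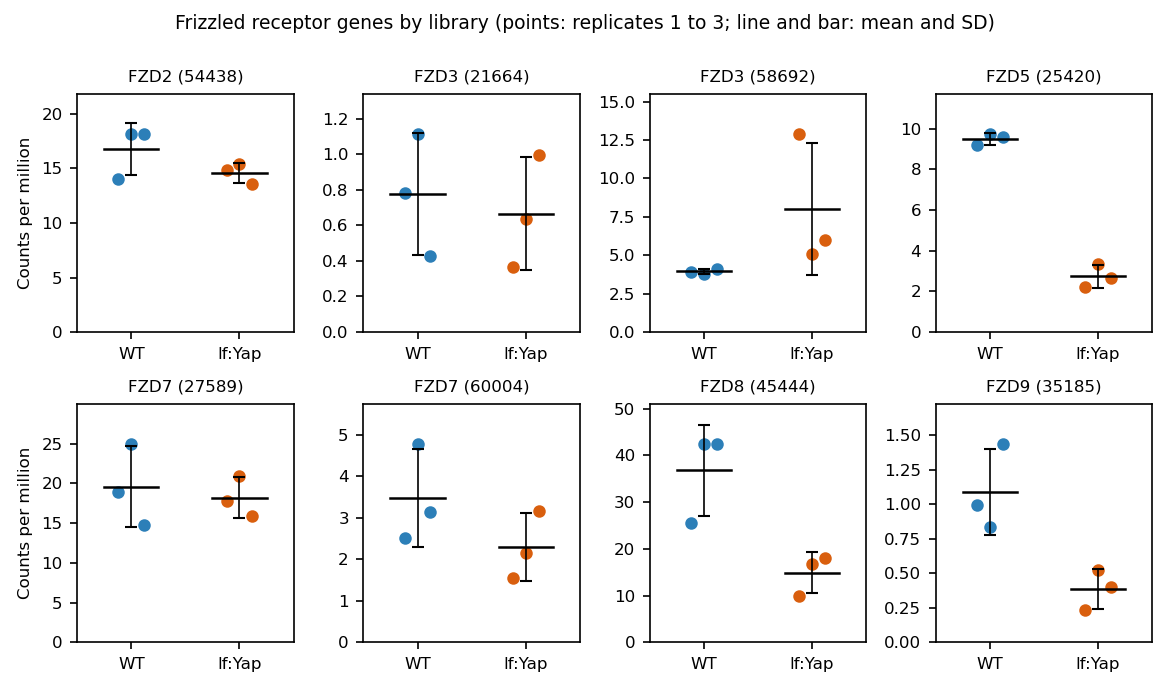
CPM (y axis, from 0) of the 8 Frizzled receptor genes in WT and lf:Yap livers; points are replicates 1 to 3 from left to right, lines are means and bars are SDs. FZD5, FZD8 and FZD9 are lower in all 3 lf:Yap libraries than in any WT library, and of these FZD5 passed the test.

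Summed over the 8 receptor genes, the level was 76.0, 105.9 and 94.2 CPM in WT and 59.8, 65.0 and 60.8 CPM in lf:Yap. Without FZD5 and FZD8, left out after their values were seen, the sums were 41.3 to 53.7 CPM in WT and 40.1 to 47.6 CPM in lf:Yap and overlapped. Of the 8 genes 7 lay below 0, or 87.5% against 53.2% of all tested genes, with a median log2 fold change of -0.41. Without WT replicate 2, 5 of 8 lay below 0 and the median was -0.22. These are descriptions of the family and carry no test of their own.

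Ligand genes were counted thinly, and none of the 15 tested passed edgeR's test (1 lower and 0 higher with an unadjusted p under 0.05, and 0 called by DESeq2 or limma-voom). The share at that unadjusted p was 6.67%, against 11.3% of all tested genes. Mean ligand levels were 0.126 to 2.79 CPM, and 10 of the 16 ligand genes lay under 1 CPM. WNT9A (ENSDARG00000063437), which in mouse liver is made by endothelial cells, read 1.85, 2.85 and 2.47 CPM in WT and 3.98, 2.62 and 2.98 CPM in lf:Yap. The groups overlapped, and its log2 difference was 0.42 ± 0.30 (SE; adjusted p = 0.686, edgeR). wnt2 (ENSDARG00000041117), another endothelial signal of mouse liver, read 0.167 to 0.189 CPM in WT and 0.138 to 0.256 CPM in lf:Yap, on 10 to 21 reads per library. wnt2ba (ENSDARG00000005050), a paralog of wnt2bb, which acts in liver specification in zebrafish, read 1.98 to 2.32 CPM in WT and 1.71 to 2.97 CPM in lf:Yap (log2 difference 0.12, 95% interval -0.58 to 0.82). WNT2B (ENSDARG00000032234), whose symbol carries no paralog letter, read 0.232 to 0.580 CPM in WT and 0.292 to 0.582 CPM in lf:Yap. Its groups overlapped (log2 difference 0.11, 95% interval -1.06 to 1.29).

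The ligand with the lowest p by edgeR was wnt3 (ENSDARG00000038990), a canonical ligand, and its WT libraries spread widely. It read 0.277, 2.21 and 4.89 CPM in WT and 0.329, 0.675 and 0.333 CPM in lf:Yap. WT replicate 1 lay below all 3 lf:Yap libraries, while the other WT libraries lay above them. The log2 difference of -2.46 ± 0.92 (SE) had an unadjusted p of 0.0302 and an adjusted p of 0.371 by edgeR. DESeq2 gave an unadjusted p of 0.00356 and an adjusted p of 0.0681. By limma-voom the unadjusted p was 0.169 (0.0144 for wnt4b and 0.0401 for wnt7ba by that tool). The wnt3 difference was -1.48 without WT replicate 3 and -2.97 without WT replicate 1.

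A pair of other ligands, chosen after their values were seen, stood low in lf:Yap libraries without passing. wnt4b (ENSDARG00000040159) read 2.70, 1.55 and 1.18 CPM in WT and 0.0730, 1.198 and 0.180 CPM in lf:Yap, with lf:Yap replicate 2 inside the WT range (adjusted p = 0.519, edgeR). wnt7ba (ENSDARG00000022858) was the 1 tested ligand whose groups did not overlap, or 6.67% of tested ligands against 17.6% of all tested genes. It read 0.491 to 0.707 CPM in WT and 0.170 to 0.416 CPM in lf:Yap (log2 difference -1.10 ± 0.48, SE, adjusted p = 0.456 by edgeR). Summed over the 16 ligands the level was 15.1, 16.7 and 16.5 CPM in WT and 13.2, 11.3 and 12.7 CPM in lf:Yap. Without wnt3 and wnt4b, left out after their values were seen, the sums were 10.4 to 12.97 CPM in WT and 9.42 to 12.8 CPM in lf:Yap and overlapped.

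The other ligands, WNT11, WNT16, WNT3A, WNT4, WNT6, WNT7B and both WNT7A genes, overlapped between the groups, as did the untested wnt11f2 (ENSDARG00000004256) with 4 to 21 reads per library. WNT3A (ENSDARG00000058822), the canonical relative of wnt3, read 0.961 to 1.04 CPM in WT and 0.716 to 1.18 CPM in lf:Yap (log2 difference -0.14, 95% interval -0.92 to 0.65). WNT16 (ENSDARG00000094973) had 0 to 25 reads per library, and its 95% interval of -4.21 to 1.43 on the log2 scale includes a 2-fold change in either direction.

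**Figure D3:**
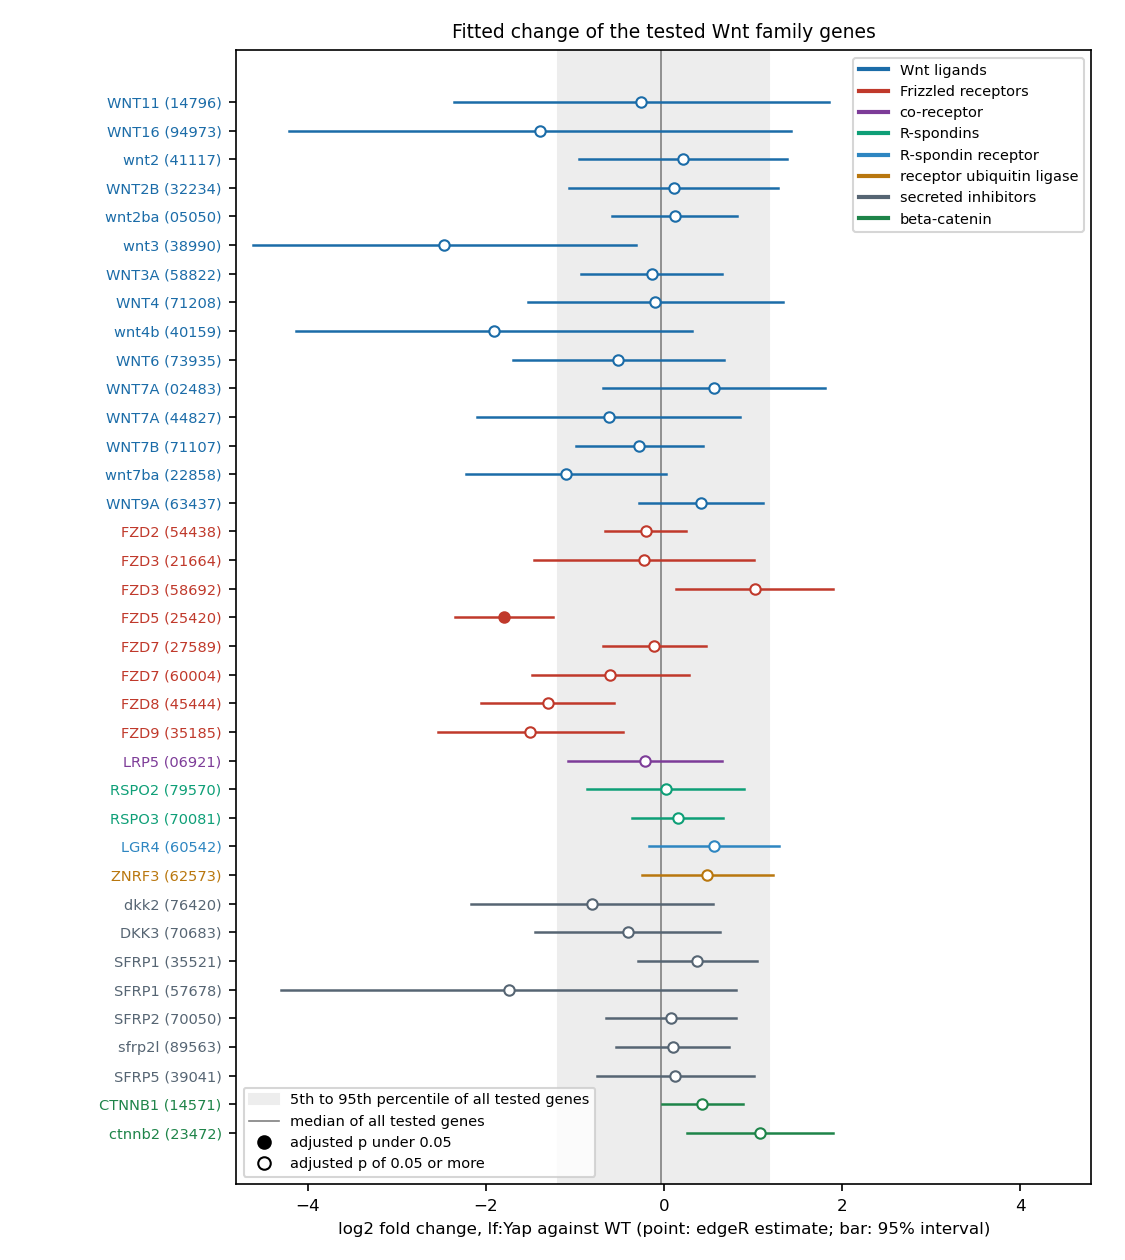
Fitted log2 fold change (x axis, lf:Yap against WT) of the 37 tested family genes with 95% intervals, beside the 5th to 95th percentile of all tested genes (-1.18 to 1.19, grey band). FZD5 at -1.79 is the 1 filled point, with an adjusted p under 0.05, and the widest intervals belong to thinly counted ligands and inhibitors.

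The co-receptor and R-spondin branch showed no gene past the threshold (0 of 5 by edgeR, DESeq2 or limma-voom, and 0 with an unadjusted edgeR p under 0.05). LRP5 (ENSDARG00000006921), the co-receptor gene, read 73.5, 189.2 and 102.5 CPM in WT and 80.2, 111.2 and 123.2 CPM in lf:Yap. WT replicate 2 was the highest, and without it the log2 difference turned from -0.22 to 0.26. LGR4 (ENSDARG00000060542), an R-spondin receptor with a role in liver zonation in mouse, read 21.9, 42.9 and 31.9 CPM in WT and 36.7, 61.7 and 44.6 CPM in lf:Yap (log2 difference 0.56 ± 0.31, SE; adjusted p = 0.577, edgeR).

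ZNRF3 (ENSDARG00000062573), the ligase that takes Frizzled proteins off the surface and is itself a Wnt target, read 3.42, 3.82 and 2.90 CPM in WT and 3.02, 6.09 and 5.13 CPM in lf:Yap. The groups overlapped through lf:Yap replicate 1 (log2 difference 0.49, 95% interval -0.25 to 1.23). RSPO3 (ENSDARG00000070081), the R-spondin made by central vein endothelium in mouse, was among the steadiest members. It read 6.002, 7.98 and 7.42 CPM in WT and 9.03, 6.95 and 7.89 CPM in lf:Yap, and its interval of -0.36 to 0.67 on the log2 scale excludes a 2-fold change. RSPO2 (ENSDARG00000079570) read 0.467 to 0.625 CPM in WT and 0.413 to 0.669 CPM in lf:Yap.

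Secreted inhibitors gave no call either (0 of 7 tested by edgeR, DESeq2 or limma-voom, and 0 with an unadjusted edgeR p under 0.05). SFRP1 (ENSDARG00000035521), a soluble protein with a Frizzled-like domain that binds Wnts, read 7.72, 8.70 and 10.5 CPM in WT and 10.8, 8.30 and 15.8 CPM in lf:Yap (log2 difference 0.38, 95% interval -0.29 to 1.04). The other SFRP1 (ENSDARG00000057678) read 1.64, 0.290 and 0.162 CPM in WT, with replicate 1 far above all others, and 0.0275 to 0.374 CPM in lf:Yap. SFRP2 (ENSDARG00000070050), sfrp2l (ENSDARG00000089563) and SFRP5 (ENSDARG00000039041) had log2 differences of 0.08, 0.10 and 0.13, each from overlapping groups.

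Of the Dickkopf genes, DKK3 (ENSDARG00000070683), an atypical family member that does not act as a classical Lrp blocker, read 11.5, 4.30 and 3.76 CPM in WT and 4.405, 5.10 and 5.28 CPM in lf:Yap. Its log2 difference of -0.40 turned to 0.30 without WT replicate 1, the high library. dkk2 (ENSDARG00000076420) read 0.371 to 1.11 CPM in WT and 0.207 to 0.596 CPM in lf:Yap. dkk1b (ENSDARG00000045219), a classical inhibitor of canonical signals, had 10, 12 and 8 reads in WT and 2, 5 and 0 reads in lf:Yap and did not enter the test.

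Beta-catenin transcripts stood higher in lf:Yap without overlap, as did 8.84% of all tested genes, and neither gene passed. ctnnb2 (ENSDARG00000023472), the second zebrafish beta-catenin gene, read 17.5, 24.1 and 40.7 CPM in WT and 68.7, 61.4 and 43.7 CPM in lf:Yap. The nearest libraries, WT replicate 3 and lf:Yap replicate 3, were 40.7 and 43.7 CPM. Its 2.11-fold difference (log2 1.08 ± 0.35, SE; 95% interval 0.26 to 1.90) had an unadjusted p of 0.0167 and an adjusted p of 0.301 by edgeR (0.0832 with DESeq2, 0.255 with limma-voom). CTNNB1 (ENSDARG00000014571) read 77.4, 86.2 and 76.7 CPM in WT and 127.3, 95.04 and 102.1 CPM in lf:Yap (log2 difference 0.43 ± 0.19, SE; adjusted p = 0.468 by edgeR). The CTNNB1 difference was 0.30 without lf:Yap replicate 1 and 0.22 without the 3 libraries rich in pancreas markers. Summed, both genes held 94.9 to 117.4 CPM in WT and 145.8 to 196.0 CPM in lf:Yap. Beta-catenin is controlled mainly through protein stability, which these libraries do not measure.

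Beyond the family, 91 genes from 5 lists of the wider pathway were tested, and 1 of them changed: CELSR2 rose. The share called was 1.10% against 0.665% of all tested genes, and 8 were higher and 4 lower with an unadjusted p under 0.05, or 13.2% against 11.3% of all tested genes. DESeq2 called 4 higher and 3 lower, or 7 of 91, where it called 4.64% of all genes, and limma-voom called 1 beside 0.758%. Of the 91, 60 lay above 0 and 31 below, and their median was 0.13 on the log2 scale against -0.03 over all tested genes. CELSR2 (ENSDARG00000019726), a giant cadherin of the planar cell polarity branch, read 1.29, 1.28 and 1.39 CPM in WT and 3.87, 5.25 and 4.13 CPM in lf:Yap. Every lf:Yap library was above every WT library, and the gene rose 3.34-fold (log2 fold change 1.74 ± 0.26, SE; adjusted p = 0.042, edgeR, n = 3 each). As for FZD5, edgeR's adjusted p passed in 0 of the 6 fits without 1 library (0.103 to 0.174). The log2 fold change in those fits was 1.601 to 1.83.

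In the list of alternative receptors and planar polarity genes, 1 of 20 passed, or 5% against 0.665% of all tested genes. An unadjusted p under 0.05 by edgeR was met by 2 higher and 0 lower, or 10% against 11.3%. Above 0 lay 16 genes, and 20% lay below against 53.2% of all tested genes. VANGL1 (ENSDARG00000004305), a membrane protein of the same branch named here after its values were seen, read 2.32, 1.95 and 2.39 CPM in WT and 3.86, 4.16 and 6.39 CPM in lf:Yap (log2 difference 1.11 ± 0.29, SE; adjusted p = 0.193 by edgeR and 0.017 by DESeq2). VANGL2 (ENSDARG00000027397) differed by 0.45 and CELSR1 (ENSDARG00000069185) by 0.30 on the log2 scale, neither past the threshold and both likewise named after their values were seen. The 4 genes below 0 were PRICKLE2 (ENSDARG00000020982; -0.55), SCRIB (-0.31), CELSR3 (-0.19) and INVS (-0.11), each from overlapping groups.

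For Wnt secretion and other extracellular regulators, 0 of 16 passed by edgeR, while an unadjusted p under 0.05 was met by 2 higher and 1 lower (1 higher and 1 lower called by DESeq2, 0 by limma-voom). The share at that unadjusted p was 18.8%, against 11.3% of all tested genes. WLS (ENSDARG00000009534), the carrier that brings Wnts to the cell surface, read 16, 5.94 and 7.05 CPM in WT and 49.995, 21.4 and 26.1 CPM in lf:Yap. The groups did not overlap and replicate 1 was the highest library of each (log2 difference 1.75 ± 0.48, SE; adjusted p = 0.223 by edgeR and 0.0154 by DESeq2). Without 1 library it was 1.30 to 2.34, the highest without WT replicate 1. SOST (ENSDARG00000061259), a secreted blocker of Lrp5 and Lrp6, read 1.59, 0.413 and 0.799 CPM in WT and 0.195, 0.207 and 0.277 CPM in lf:Yap (log2 difference -2.04 ± 0.57, SE; adjusted p = 0.226 by edgeR and 0.0357 by DESeq2). Without 1 library it was -2.40 to -1.40, the smallest without WT replicate 1, and that library was the highest for the gene.

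Inside the cell, 0 of 23 cytoplasmic transduction genes passed by edgeR, where an unadjusted p under 0.05 was met by 2 higher and 0 lower (0 called by DESeq2 or limma-voom). The share at that unadjusted p was 8.7%, against 11.3% of all tested genes. GSK3A (ENSDARG00000029501), a kinase of the destruction complex, read 18.4, 21.5 and 20.5 CPM in WT and 30.04, 33.6 and 25.9 CPM in lf:Yap (log2 difference 0.57 ± 0.19, SE; adjusted p = 0.323, edgeR). The other ID named GSK3A (ENSDARG00000015681) lay the opposite way, with overlapping groups (log2 difference -0.21, 95% interval -0.67 to 0.25). gsk3bb (ENSDARG00000052468) read 0.435 to 0.927 CPM in WT and 3.24, 0.950 and 1.26 CPM in lf:Yap (adjusted p = 0.36, edgeR). GSK3B (ENSDARG00000017803) had overlapping groups (log2 difference 0.28, 95% interval -0.28 to 0.85). APC (ENSDARG00000058868), a scaffold of that complex, differed by 0.27 with an interval of -0.20 to 0.75.

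Of 19 nuclear effector genes 0 passed by edgeR, where an unadjusted p under 0.05 was met by 1 higher and 0 lower (DESeq2 called 1 higher, limma-voom 0). The share at that unadjusted p was 5.26%, against 11.3% of all tested genes. tcf7l1b (ENSDARG00000007369), a Tcf factor that mostly represses, read 3.95, 2.63 and 3.32 CPM in WT and 6.85, 5.70 and 6.83 CPM in lf:Yap (log2 difference 0.97 ± 0.24, SE; adjusted p = 0.184 by edgeR and 0.016 by DESeq2). The gene named TCF7L1 (ENSDARG00000038159) had overlapping groups (log2 difference -0.04, 95% interval -0.62 to 0.54). TLE3 (ENSDARG00000069006), a Groucho-type corepressor, read 17.7, 75.1 and 37.5 CPM in WT and 7.76, 24.1 and 21.5 CPM in lf:Yap. Its groups overlapped (log2 difference -1.29, 95% interval -2.69 to 0.12), and the other ID named TLE3 (ENSDARG00000002787) differed by -0.14. LEF1 (ENSDARG00000031894), which is both an effector and a Wnt target, read 0.416 to 0.660 CPM in WT and 0.341 to 0.748 CPM in lf:Yap.

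Among 13 genes often induced by Wnt, 0 passed by edgeR, where an unadjusted p under 0.05 was met by 1 higher and 3 lower (DESeq2 called 2 lower, limma-voom 0). The share at that unadjusted p was 30.8%, against 11.3% of all tested genes. These genes were both IDs named MYC, which lay opposite ways, and ID2 with its paralog id2b. The latter (ENSDARG00000029544) differed by -1.11 on the log2 scale (adjusted p = 0.269 by edgeR). The groups did not overlap for 2 higher and 4 lower, or 46.2% against 17.6% of all tested genes. The median of the list was 0.01 on the log2 scale. NKD1 (ENSDARG00000020053), a feedback inhibitor, read 1.01, 0.904 and 0.347 CPM in WT and 1.10, 0.427 and 1.07 CPM in lf:Yap (log2 difference 0.20, 95% interval -1.09 to 1.49). MYC (ENSDARG00000045695), a paralog of the growth regulator gene, read 1.31, 7.52 and 5.62 CPM in WT and 0.560, 0.606 and 0.721 CPM in lf:Yap. Its log2 difference of -2.94 ± 0.62 (SE) had an adjusted p of 0.121 by edgeR, 9.5e-05 by DESeq2 and 0.0227 by edgeR without WT replicate 1. The other ID named MYC (ENSDARG00000007241) lay the opposite way, at 179.2, 184.4 and 19.4 CPM in WT and 379.2, 521.9 and 591.1 CPM in lf:Yap (adjusted p = 0.372, edgeR). ID2 (ENSDARG00000055283), an inhibitor of basic helix-loop-helix factors that many signals besides Wnt induce, read 32.6, 33.2 and 45.1 CPM in WT and 15.6, 12.01 and 21.3 CPM in lf:Yap (log2 difference -1.18 ± 0.27, SE; adjusted p = 0.153 by edgeR and 0.00745 by DESeq2).

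**Figure D4:**
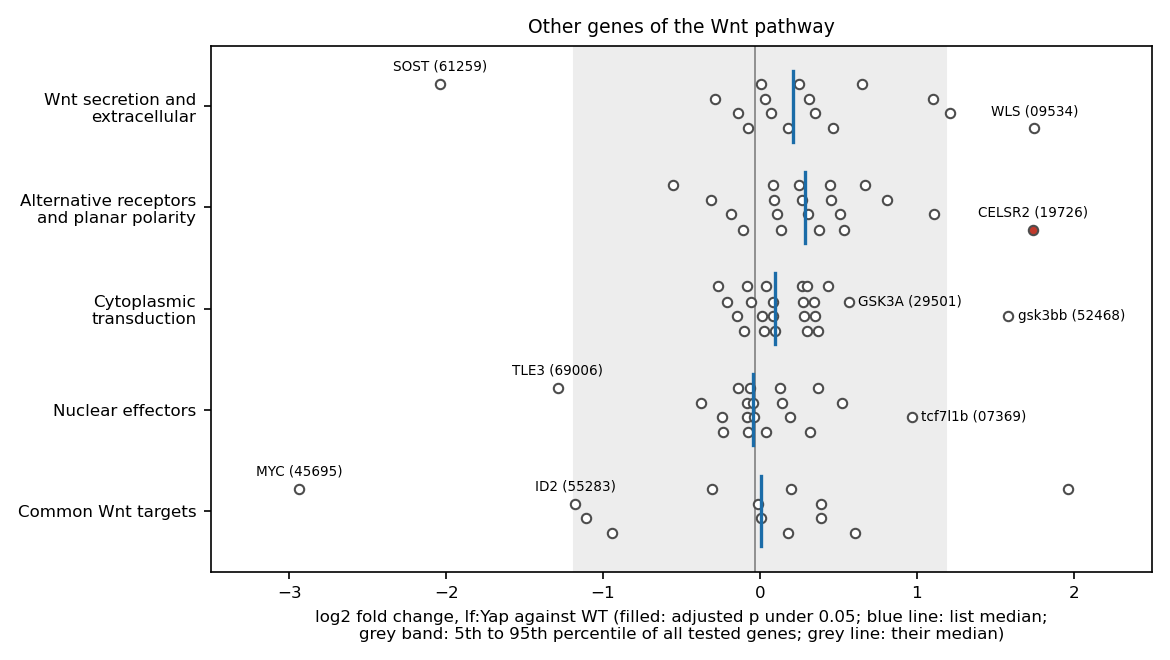
Fitted log2 fold change (x axis, lf:Yap against WT) of 91 tested genes in 5 lists of the wider Wnt pathway, 1 point per gene, with the median of each list as a blue line. CELSR2 at 1.74 is the 1 filled point, with an adjusted p under 0.05, and most points lie inside the 5th to 95th percentile of all tested genes.

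Markers of cell types that make or receive Wnt signals were read in the same libraries. Of 9 tested endothelial marker genes 9 lay above 0, with 3 at an unadjusted p under 0.05 and 0 past the threshold by edgeR, DESeq2 or limma-voom. None lay below 0, against 53.2% of all tested genes. The 3 were 33.3% of the list, against 11.3% of all tested genes (6.12% higher). The groups did not overlap for 4, or 44.4% against 17.6%. The summed level of the endothelial list was 59.9 to 82.2 CPM in WT and 87.4 to 109.3 CPM in lf:Yap. Of 23 macrophage marker genes 17 lay below 0, or 73.9% against 53.2%, and the sums were 481.2 to 596.9 and 342.7 to 463.6 CPM. Non-overlapping groups were found for 1 of them, or 4.35% against 17.6%, and 0 passed by edgeR. Many of the list are copies named MFAP4 or mfap4, among them the 2 genes with an unadjusted p under 0.05. The most counted gene, cd68 (ENSDARG00000055504), had a log2 difference of 0.001 (95% interval -0.47 to 0.47). Most other genes outside these copies lay below 0. They were MPEG1 (ENSDARG00000055290; -0.79), c1qb (-0.63), c1qa (-0.51), SPI1 (-0.38), c1qc (-0.36), spi1a (-0.35), marco (-0.03) and ptprc (-0.03). Above 0 lay csf1rb (0.65) and the other ID named MPEG1 (ENSDARG00000043093; 0.10). The sums of the 13 biliary marker genes (2674 to 3399 and 2444 to 3507 CPM) and of the 14 stellate and mesenchymal marker genes (71.1 to 135.2 and 75.5 to 136.7 CPM) overlapped. Erythroid markers summed to 22.4 to 59.7 and 36.3 to 70.2 CPM, and vitellogenin genes to 4.12 to 13.4 and 10.8 to 63.6 CPM. The part of cell composition in the differences of FZD5, CELSR2 and the other genes was not tested.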

How the data were processed

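The deposited table holds raw read counts per Ensembl gene, 1 column per library. The tools named, per the submitters' processing notes, were HTSeq 0.6.0 and STAR 2.3.0e. The sources used here do not state genome build, annotation or strandedness. Whether reads from overlapping or antisense genes were told apart is therefore not known. All 25640 genes sum to at least 30 reads. Symbols were matched for 17999 IDs through a table of IDs and symbols.

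Groups came from sample titles. The test was edgeR's (version 4.0.16, R 4.3.3; filterByExpr, leaving 24674 genes; TMM; robust quasi-likelihood fit; two-sided; Benjamini-Hochberg over all genes at 0.05). The SE is the log2 fold change divided by the square root of F. DESeq2 1.42.0 and limma-voom (limma 3.58.1) were alternatives. The common biological coefficient of variation was 44.9%. Exact permutation of 3 against 3 libraries cannot go below p = 0.1 and was not used. Replicates differed by far more than sampling noise (chi-square per degree of freedom 197.1 to 354.7). On simulated lf:Yap and WT counts (24074 genes), edgeR's test found 2 of 50 genes set to a 2-fold change and 23 of 50 at 4-fold. It found 42 of 50 at 8-fold and 48 of 50 at 16-fold, and 7 of its 122 calls were false. The genes set to change were drawn only from those with a mean over 1 CPM, and recovery was not split by level. It therefore gives no power for thinly counted genes, such as the 17 members, 10 of them ligands, whose level lay under 1 CPM.

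Values per library are given for members with an unadjusted p under 0.05, the most counted member of each family, FZD5 and CTNNB1, and up to 2 genes per pathway list; other genes with values per library, such as wnt4b, VANGL1, NKD1 and the second MYC, were chosen after their values were seen. The pair of genes named CPD, which match the hepatocyte entry cp plus a letter, was left out of that list. Members and lists were chosen with earlier results of these data known.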

Additional observations from a re-analysis of the deposited data

How the results depend on the processing

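FZD5 kept its direction in all 15 alternatives (log2 fold change -1.96 to -1.53) and its call in 7 of them, and CELSR2 likewise (1.601 to 1.97, call kept in 7). The alternatives without the call for both were the 6 fits without 1 library, the replicate block and the fit without the 3 libraries rich in pancreas markers, all of which use fewer libraries or fewer residual degrees of freedom. Over all genes the count of 164 changed genes became 1072 by DESeq2, 32 to 94 without 1 library, 17 with the replicate block and 0 without the pancreas-rich libraries (1761 at an unadjusted p under 0.05, edgeR). The family count of 1 became 2 by DESeq2 (FZD5 and FZD8) and 0 without any 1 library or with the replicate block. At an unadjusted p under 0.05 by edgeR, the fits without 1 library held 4 to 8 of 37 to 39 tested members. Over all genes these fits held 2005 to 2738 of 25014 to 25213. With the block it was 5 of 37 members and 2207 of 24674 genes. The wider pathway count of 1 became 7 by DESeq2, 0 to 1 without 1 library (the 1 being MYC, ENSDARG00000045695, without WT replicate 1), and 0 with the block. With the block 12 of the 91 genes had an unadjusted p under 0.05 by edgeR, beside the 2207 over all genes. Other scalings, low-count filters, limma-voom and a fit without robust estimation left these counts at 1 and that over all genes at 148 to 187.

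Same-numbered libraries did not deviate together (correlations 0.148, 0.169 and -0.299 across genes; WT replicate 1 correlated best with lf:Yap replicate 3), so the numbers are not taken as pairs. Under at least 1 alternative 19 family genes turned in sign, none past the threshold, with a main log2 difference of at most 0.56 in size. Without WT replicate 2 the Frizzled genes below 0 went from 7 to 5 of 8 (FZD3, ENSDARG00000021664, and FZD7, ENSDARG00000027589, turned), and to 6 without lf:Yap replicate 1 or the pancreas-rich libraries. Of the 23 genes named by rule, those that turned were DKK3 (0.30 without WT replicate 1 and down to -0.70 without other single libraries, 0.34 without the pancreas-rich libraries), LRP5 (0.26 without WT replicate 2 and down to -0.47 without other single libraries), and, without the pancreas-rich libraries, RSPO3 (-0.15), SFRP1 (ENSDARG00000035521; -0.21) and WNT9A (-0.021). The causes were not tested.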
